A study of Mus musculus with 35 samples.

Results

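The cytosolic ribosomal protein genes were followed in bulk RNA-seq of mouse lung across 2 times of day and 3 treatments, neutrophil-depleting antibody, control antibody and diphtheria toxin. Members were the rows of the deposited table whose symbol begins with Rpl or Rps followed by a number (with at most a short suffix such as a, l or x), together with Rplp0, Rplp1, Rplp2 and Rpsa, and without the S6 kinase genes. This gave 83 of 22211 genes, 32 of the small subunit (Rpsa included), 48 of the large subunit and 3 of the acidic stalk. A filter on low values (a deposited value of 1 or more in at least 3 libraries) kept 81 of the 83, among 16786 genes in all. Rpl6l, annotated as a processed pseudogene, and Rpl39l were removed by it, and Rpl3l was kept at a very low level, with group means between 0.545 and 0.855.

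Ribosomes translate messenger RNA, and each holds 1 small and 1 large subunit made of ribosomal RNA and many small basic proteins. The genes for these proteins are transcribed at a high rate in most cell types, lung included, and their messages are short. Most begin with a run of pyrimidines at the transcription start, the 5′ terminal oligopyrimidine (TOP) motif, through which mTOR signalling and the RNA-binding protein LARP1 control their translation. Some members also have roles away from the ribosome, such as the binding of Mdm2 by Rpl5, Rpl11 and Rpl23.

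All mice were males of 7 to 9 weeks, killed at 1 clock time on the third day after 2 daily injections under the skin, and RNA came from the perfused left lung lobe. Anti-Ly6G mice (wild type, antibody 1A8 against a neutrophil surface protein, 3 µg per g body weight) numbered 7 at ZT16 (16 hours after lights on) and 7 at ZT4, and so did control mice (wild type, control IgG, 3 µg per g), with 3 July and 4 September libraries in each of these 4 groups. DT mice (diphtheria toxin, 10 ng per g) numbered 3 at ZT16 and 4 at ZT4. They carried MRP8-Cre;iDTR-flox, in which Cre driven by a myeloid promoter switches on the toxin receptor in neutrophils and some other myeloid cells, and all 7 formed an April batch without control mice, so toxin, genotype and batch cannot be told apart. The ZT16 mice lived in cabinets with inverted light, so time of day and housing cannot be told apart either.

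The 5′ ends of 7 members that the results turn on, chosen with their values known, are shown because the TOP motif lies there. Each window runs from 20 bases before to 30 bases after the RefSeq start of transcription on the gene's strand (GRCm38.p6), and capitals mark its longest run of C and T.
Rplp2 (chr7:141447631-141447680, plus strand): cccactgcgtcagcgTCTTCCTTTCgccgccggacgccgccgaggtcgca
Rps15a (chr7:118116118-118116167, minus strand): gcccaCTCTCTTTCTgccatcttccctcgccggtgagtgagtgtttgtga
Rpl22l1 (chr3:28805488-28805537, plus strand): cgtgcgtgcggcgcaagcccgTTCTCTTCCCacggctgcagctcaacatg
Rpl38 (chr11:114668560-114668609, plus strand): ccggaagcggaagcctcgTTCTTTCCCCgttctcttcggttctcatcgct
Rps27l (chr9:66946066-66946115, plus strand): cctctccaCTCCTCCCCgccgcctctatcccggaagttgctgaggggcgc
Rpl23 (chr11:97782410-97782459, minus strand): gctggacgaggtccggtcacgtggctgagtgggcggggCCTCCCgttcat
Rpl41 (chr10:128549139-128549188, minus strand): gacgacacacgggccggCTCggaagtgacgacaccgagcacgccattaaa
The run was 10 bases in Rplp2, Rps15a, Rpl22l1 and Rpl38, 9 in Rps27l, 6 in Rpl23 and 3 in Rpl41. Rps27l has another annotated start, not printed, whose window (chr9:66946393-66946442) had a longest run of 5 bases. Promoters of 62 of the 83 members were in the RefSeq set (74 promoters, since some members have more than 1). A run of at least 8 pyrimidines within this window was present in 47.3% of them, against 19.0% of all 32851 mouse promoters. Other short motifs were searched on both strands of the 300 bases around the start (250 before and 50 after), where CCGGAA, the core bound by ETS factors such as GABP, was present in 48.6% of member promoters and 14.9% of all promoters. GGGCGG, the GC box, was present in 59.5% against 35.7%, AAGATGG, a YY1 motif, in 16.2% against 6.34%, and CACGTG, the E-box of MYC and of the core clock proteins, in 10.8% against 7.15%. These are matches of letters, not binding sites.

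The deposited values are normalised and their read depth is unknown. Each change is a log2 change ± SE estimated with limma from log2(value + 0.5), fitted on all 16786 genes and 35 libraries, with Benjamini-Hochberg adjusted p below 0.05 called. A library was taken as 1 mouse, since the design counts mice, 3 or 4 in a group of a batch. Library sums lay between 962649 and 1033550, and members made up 2.47% to 3.23% of a library's sum (median 2.76%). Surfactant and other lung epithelial markers were high in every library, with summed levels between 48172 and 66520. At ZT16 the 22 mature neutrophil genes summed to 96.7 to 135.8 (median 110.7) in anti-Ly6G mice against 99.7 to 189.2 (median 152.5) in controls. At ZT4 they summed to 142.8 to 243.9 (median 189.4) in anti-Ly6G mice against 181.5 to 1183 (median 189.2) in controls. The highest, ZT4_control Sep#2 (group, batch and column order), stood apart. The ranges overlapped at both times, and the ZT4 medians were nearly equal. In DT mice the sums were 133.0 to 187.0 at ZT16 and 158.8 to 168.5 at ZT4. In whole lung, fewer cells of a type and less RNA per cell cannot be told apart.

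Members varied little between mice of 1 group. Their residual SD in the fit had a median of 0.0985 on the log2 scale over the 79 members with a mean log2 level of 5 or more. It was 0.111 for 6540 other genes and 0.116 for 292 other short transcripts from that level up. Most members lie well above a level of 5, and the spread was not compared at matched levels. Rpl5 and Rpl4 were the steadiest, with residual SDs of 0.0634 and 0.0635, and Rpl3l, Rpl10, Rpl27 and Rps12 the least steady, with 0.317, 0.312, 0.244 and 0.240. The members moved together from mouse to mouse: the median deviation of the 81 members from their own means ranged from -0.153 to 0.205 over the 35 libraries, and differed between mice of 1 group and batch with an SD of 0.0912. In ZT16_antiLy6G Jul#2 79 of 81 members lay above their mean, and in ZT16_control Jul#2 only 1 did. The 292 other short transcripts moved the same way in these libraries, with median deviations of 0.076 and -0.060. Over the 35 libraries the median deviation had an SD of 0.096 for members and 0.077 for those short transcripts.

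**Figure D1:**
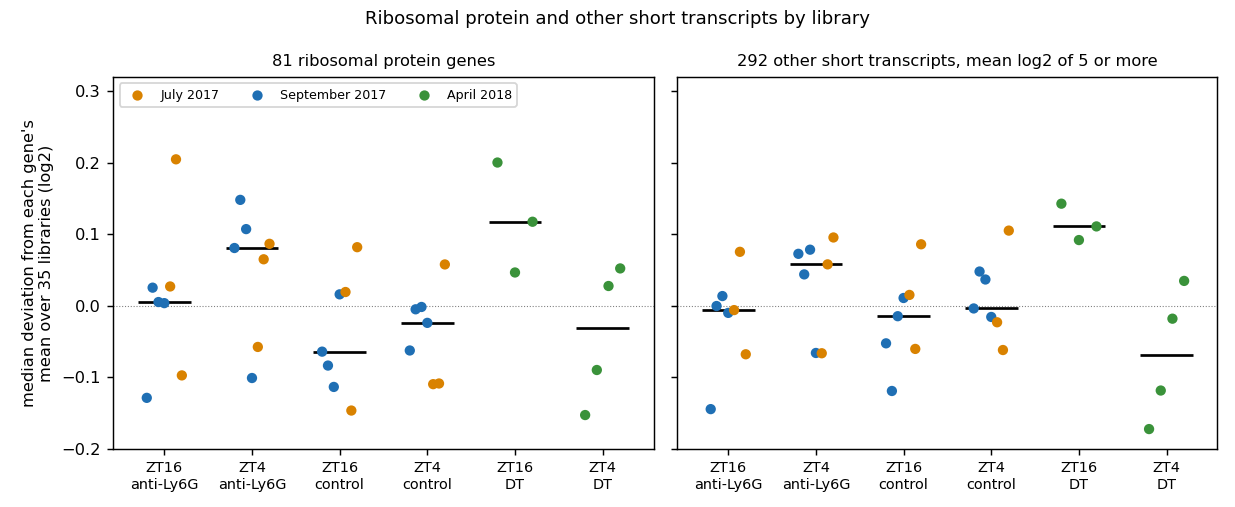
Median deviation (log2) of 81 ribosomal protein genes (left) and of 292 other short protein-coding transcripts with a mean log2 level of 5 or more (right) from each gene's mean over 35 libraries, 1 point per library, colour by batch, with the group median as a line. The 3 ZT16 DT libraries lie at 0.20, 0.05 and 0.12 on the left and at 0.14, 0.09 and 0.11 on the right, and the groups of antibody-treated mice overlap in both panels.

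In anti-Ly6G mice the members were slightly lower at ZT16 than at ZT4. The median change was -0.05, with 18 of 81 above zero, and 3 members were called lower and 0 higher, a share of 3.70% lower against 10.4% of all genes tested (20.9% were called in either direction). At an unadjusted p below 0.05 there were 9 of 81 members, against 33.4% of all genes. The 3 lower members came from each structural class: Rps15a of the small subunit, Rpl22l1 of the large subunit and Rplp2 of the stalk. The median change over all genes was -0.02. Since members move together from mouse to mouse, their signs are not independent. The shift was smaller than the SD of 0.0912 between single mice, which is not the error of a difference between group means.

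Rps15a (chr7:118104372-118116188, minus strand), a small-subunit protein, had values from 184.8 to 231.2 (median 203.7) in ZT16 anti-Ly6G mice and from 212.3 to 247.3 (median 228.1) in ZT4 anti-Ly6G mice. Of the ZT16 mice 6 were below the lowest ZT4 mouse, yet the ranges overlapped. It fell by 0.16 ± 0.05 (limma adjusted p = 0.0228).

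Rpl22l1 (chr3:28805436-28807424, plus strand), a paralog of Rpl22 that can stand in for it, had values from 36.3 to 53.9 (median 46.1) in ZT16 anti-Ly6G mice and from 49.8 to 59.1 (median 53.3) in ZT4 anti-Ly6G mice. The highest ZT16 mouse reached into the ZT4 range, and the other 6 lay below the lowest ZT4 mouse. It fell by 0.24 ± 0.07 (limma adjusted p = 0.0174). Rpl22 itself was at -0.09 ± 0.05 (limma adjusted p = 0.214), with values from 192.4 to 226.1 at ZT16 and from 205.2 to 238.6 at ZT4.

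Rplp2 (chr7:141447370-141451585, plus strand) encodes a stalk protein that helps to recruit elongation factors. Its values ran from 198.4 to 282.6 (median 236.7) in ZT16 anti-Ly6G mice and from 232.6 to 287.5 (median 276.5) in ZT4 anti-Ly6G mice, so the ranges overlapped widely. It fell by 0.19 ± 0.07 (limma adjusted p = 0.0372). Its stalk partners did not pass: Rplp1 averaged 564 at ZT16 and 603 at ZT4 (-0.10 ± 0.06, limma adjusted p = 0.256), and Rplp0, which anchors the stalk, averaged 728 and 727 in the ZT16 and ZT4 anti-Ly6G mice (0.00 ± 0.05, limma adjusted p = 0.994).

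The next members by p, Rpl23 at -0.13 ± 0.05 and Rps3a1 at -0.14 ± 0.06, had limma adjusted p of 0.0624 and 0.0653. Each of the 3 calls was lost without some single mouse. Rpl22l1 was lost without ZT16_antiLy6G Jul#2 (limma adjusted p = 0.0591). Rps15a was lost without ZT4_antiLy6G Sep#2, ZT16_antiLy6G Sep#1 or ZT16_antiLy6G Jul#3 (limma adjusted p = 0.0638, 0.0633 and 0.0572). Rplp2 was lost without any 1 of ZT4_antiLy6G Sep#1, Sep#2, Sep#3, Jul#2 and Jul#3 and ZT16_antiLy6G Sep#1, Sep#2 and Jul#3 (limma adjusted p from 0.0603 to 0.109). The count of lower members was 1 without ZT4_antiLy6G Sep#2, ZT16_antiLy6G Sep#1 or ZT16_antiLy6G Jul#3, 5 without ZT4_antiLy6G Sep#4, 7 without ZT4_antiLy6G Jul#1 and 8 without ZT16_antiLy6G Jul#2. Within batches, Rpl22l1 changed by -0.33 in July and -0.17 in September, Rps15a by -0.11 and -0.20, and Rplp2 by -0.10 and -0.26. B cell markers moved in the same comparison: 16 of 21 were lower and 1 higher, where 10.4% and 10.6% of all genes were called lower and higher. Their summed levels were 125 to 263 in ZT16 mice and 234 to 429 in ZT4 mice. With the level of lymphocyte markers as a covariate, 1 member was called lower, and the median change was -0.04.

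In control mice the members lay close to zero over the day. The median change was -0.00, with 37 of 81 above zero, and limma called 0 members, against 9.04% of all genes tested (4.65% higher and 4.38% lower), with 0 members at an unadjusted p below 0.05 as well (23.8% of all genes). The 95% confidence interval of the change lay within 0.25 log2 units of zero for 77 of the 81 members. The members of smallest p were Rps25 (0.10 ± 0.05), Rpl29 (0.07 ± 0.04), Rplp2 (-0.11 ± 0.07), Rps19 (0.08 ± 0.05) and Rpl27 (-0.19 ± 0.12), with limma adjusted p from 0.233 to 0.366.

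The genes called in anti-Ly6G mice had these values in control mice. Rpl22l1 had values from 41.8 to 56.1 (median 46.6) in ZT16 control mice and from 42.1 to 55.2 (median 47.9) in ZT4 control mice, a change of -0.01 with a 95% interval from -0.16 to 0.14. Rps15a was at -0.03 (interval -0.14 to 0.07). The difference between the time changes of anti-Ly6G and control mice was called for 0 of 81 members (0% of all genes tested, 6% of all genes at an unadjusted p below 0.05). Rpl22l1 was the single member with an unadjusted p below 0.05 in that difference, at -0.23 ± 0.10 (limma adjusted p = 0.812). A difference in the course over the day between these treatments was thus not shown for any member.

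At ZT4 the members leaned higher in anti-Ly6G than in control mice, by a small amount that passed for no gene. The ZT4 anti-Ly6G libraries also enter the time comparison of anti-Ly6G mice above. The median change was 0.09, 78 of 81 members were above zero, and 25 of them (background 7.06% of all genes) had an unadjusted p below 0.05, while limma called 0 members and 0 of all genes tested. The medians within July and September were 0.094 and 0.090. Since members move together from mouse to mouse, these signs are not independent. The shift was about as large as the SD of 0.0912 between single mice, which is not the error of a difference between group means.

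Rpl23, a large-subunit protein, was the member of smallest p. It ranged from 368.2 to 425.4 (median 423.4) in ZT4 anti-Ly6G mice and from 355.3 to 384.2 (median 360.7) in ZT4 control mice, with 5 of the 7 anti-Ly6G mice above every control mouse (0.14 ± 0.05, limma adjusted p = 0.641). Rpl38, which in mice is needed for normal patterning of the skeleton, ranged from 133.4 to 161.8 (median 150.2) in ZT4 anti-Ly6G mice and from 125.5 to 148.0 (median 130.4) in ZT4 control mice (0.17 ± 0.07, limma adjusted p = 0.657). The same number of mice, 5 of 7, lay above every control mouse for Rpl38, Rps20, Rps23 and Rpl35a. Rps20 and Rps23 of the small subunit were at 0.15 ± 0.06 and 0.13 ± 0.05, and Rpl35a of the large subunit at 0.14 ± 0.05, with the same adjusted p. Rplp0 was at 0.01 ± 0.05.

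Library medians showed the same overlap: the median member deviation ran from -0.101 to 0.148 (median 0.081) in ZT4 anti-Ly6G mice and from -0.110 to 0.058 (median -0.024) in ZT4 control mice. Of the 7 anti-Ly6G mice 5 lay above every control mouse and 2 among the lower ones. Other short transcripts had a median change of 0.02 over 911 genes, and mitochondrial ribosomal protein genes had a median of -0.00 over 77. B cell markers had a median change of 0.45, with 19 of 21 above zero and summed levels of 234 to 429 in anti-Ly6G mice and 153 to 362 in control mice. With the lymphocyte covariate the members' median stayed at 0.09.

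At ZT16 the same comparison gave a smaller lean. The median change was 0.05, 76 of 81 members were above zero, 2 had an unadjusted p below 0.05 (background 4.18%), and limma called 0 members and 0 of all genes. Rpl14 was the first by p, at 0.11 ± 0.05 (limma adjusted p = 0.966). Rpl23, first at ZT4, was at 0.02 ± 0.05, and Rpl22l1 was at -0.08 ± 0.07, with a 95% interval from -0.23 to 0.07. For 75 of the 81 members the interval lay within 0.25 log2 units of zero.

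**Figure D2:**
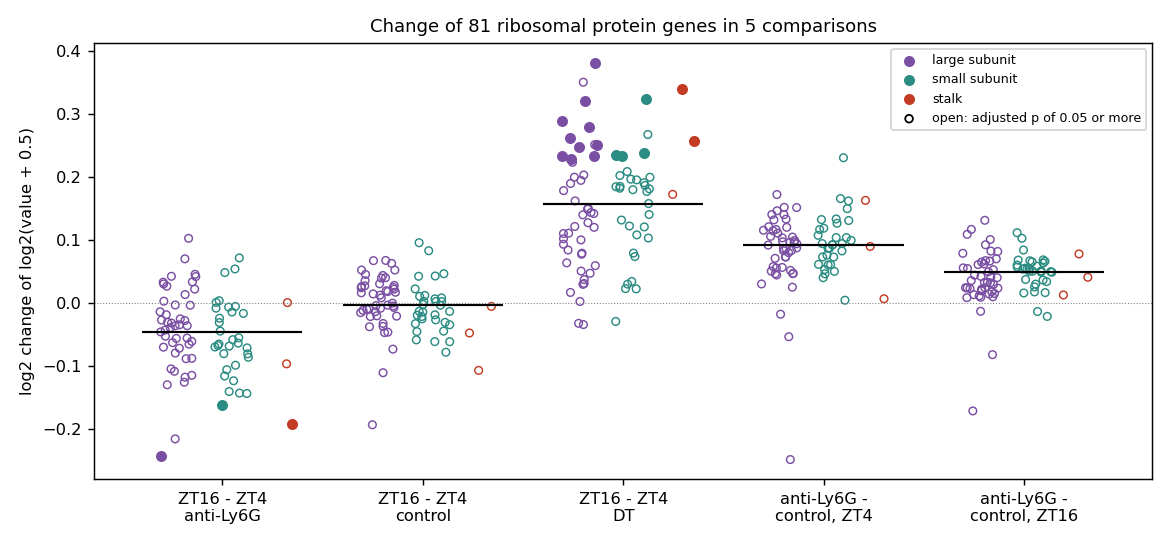
Log2 change of log2(value + 0.5) of the 81 ribosomal protein genes tested in 5 comparisons, coloured by subunit, filled where the limma adjusted p was below 0.05, with the median of the 81 as a line. The medians are -0.05, -0.00 and 0.16 for ZT16 minus ZT4 in anti-Ly6G, control and DT mice, and 0.09 and 0.05 for anti-Ly6G minus control at ZT4 and ZT16. Filled points appear for 3 lower genes in anti-Ly6G mice and 16 higher genes in DT mice.

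In DT mice the members were higher at ZT16 than at ZT4. The median change was 0.16, 78 of 81 were above zero, and 16 members were called higher and 0 lower, a share of 19.8% against 5.3% of all genes called higher (9.98% lower and 15.3% in either direction). At an unadjusted p below 0.05 there were 41 of 81 members, against 29.8% of all genes. Of the small-subunit genes 4 of 32 were called, of the large-subunit genes 10 of 46, and of the stalk genes 2 of 3. In 29 of 81 members every ZT16 mouse lay above every ZT4 mouse, against 10.9% of all genes tested, and in 0 members the reverse held, against 15.3%. With 3 and 4 mice, and 1 batch, these are the smallest groups of the series, and the members' signs are again not independent.

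Rpl41 (chr10:128548114-128549305, minus strand), which encodes the shortest ribosomal protein, had values of 609, 522 and 539 in ZT16 DT mice and 386, 401, 463 and 462 in ZT4 DT mice. The groups did not overlap. It rose by 0.38 ± 0.09 (limma adjusted p = 0.00619), the largest rise among the members called.

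Rplp2 had values of 303, 289 and 286 in ZT16 DT mice and 200, 224, 250 and 256 in ZT4 DT mice, again without overlap. It rose by 0.34 ± 0.10 (limma adjusted p = 0.0151). Of the other stalk genes, Rplp1 rose, averaging 645 in ZT16 mice and 541 in ZT4 mice (0.26 ± 0.08, limma adjusted p = 0.0344), and Rplp0 averaged 770 and 684 in ZT16 and ZT4 DT mice (0.17 ± 0.07, limma adjusted p = 0.109). In both genes all ZT16 mice lay above all ZT4 mice.

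Rps27l (chr9:66946086-66949516, plus strand), a p53-responsive paralog of Rps27, had values of 62.8, 68.2 and 62.9 in ZT16 DT mice and 50.3, 48.7, 51.1 and 56.2 in ZT4 DT mice, with all ZT16 mice above all ZT4 mice. It rose by 0.32 ± 0.09 (limma adjusted p = 0.0144). Rps27 did not follow it: it averaged 283 in ZT16 mice and 278 in ZT4 mice (0.02 ± 0.09, limma adjusted p = 0.891).

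Rpl22l1 had values of 65.5, 52.8 and 53.8 in ZT16 DT mice and 40.7, 44.5, 50.1 and 47.7 in ZT4 DT mice. The lowest ZT16 mouse was just above the highest ZT4 mouse. It rose by 0.32 ± 0.11 (limma adjusted p = 0.0359), and Rpl22 averaged 227 in ZT16 mice and 208 in ZT4 mice (0.13 ± 0.07, limma adjusted p = 0.222).

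Rpl38 (chr11:114668524-114672331, plus strand) had values of 170, 163 and 155 in ZT16 DT mice and 120, 125, 144 and 146 in ZT4 DT mice, and rose by 0.29 ± 0.09 (limma adjusted p = 0.0331). Rpl36a had values of 188, 163 and 178 in ZT16 DT mice and 129, 140, 152 and 164 in ZT4 DT mice, and rose by 0.28 ± 0.08 (limma adjusted p = 0.0243). The groups of Rpl38 were apart, and those of Rpl36a overlapped slightly, with 163 at ZT16 below 164 at ZT4. The other members called rose by 0.23 to 0.26: Rpl12, Rpl13a, Rpl18, Rpl23, Rpl34 and Rpl39 of the large subunit and Rps2, Rps20 and Rps24 of the small one.

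Among the members called, Rpl13a can repress translation of inflammatory messages in human cells, and Rps24 is a Diamond-Blackfan anaemia gene in humans. The following members did not pass. Rps6, the ribosomal substrate of S6 kinase, was at 0.11 ± 0.08, Rpl5 at 0.05 ± 0.06, Rpl11 at 0.06 ± 0.07, Rps3 at 0.07 ± 0.07, and Rps19, another Diamond-Blackfan anaemia gene in humans, at 0.19 ± 0.08. The limma adjusted p of Rps19 was 0.0919.

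The calls in DT mice depended on single libraries. The count of members called higher was 1 without ZT16_DT Apr#1, 10 without ZT16_DT Apr#2, 7 without ZT16_DT Apr#3, 2 without ZT4_DT Apr#1, 3 without ZT4_DT Apr#2 and 25 without ZT4_DT Apr#4. Of the named genes, Rpl41 was lost without ZT16_DT Apr#1 (limma adjusted p = 0.0528), Rps27l without ZT16_DT Apr#2 (0.0752), and Rplp2 without ZT4_DT Apr#1 or ZT16_DT Apr#1 (0.0857 and 0.0631). Rpl22l1, Rpl38 and Rpl36a were lost without ZT4_DT Apr#1, ZT4_DT Apr#2 or ZT16_DT Apr#1, Rpl38 also without ZT16_DT Apr#2 and Rpl36a also without ZT16_DT Apr#3. The median change of members kept its sign, from 0.116 to 0.205. In a fit of the 2 DT groups alone, 6 members were called.

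**Figure D3:**
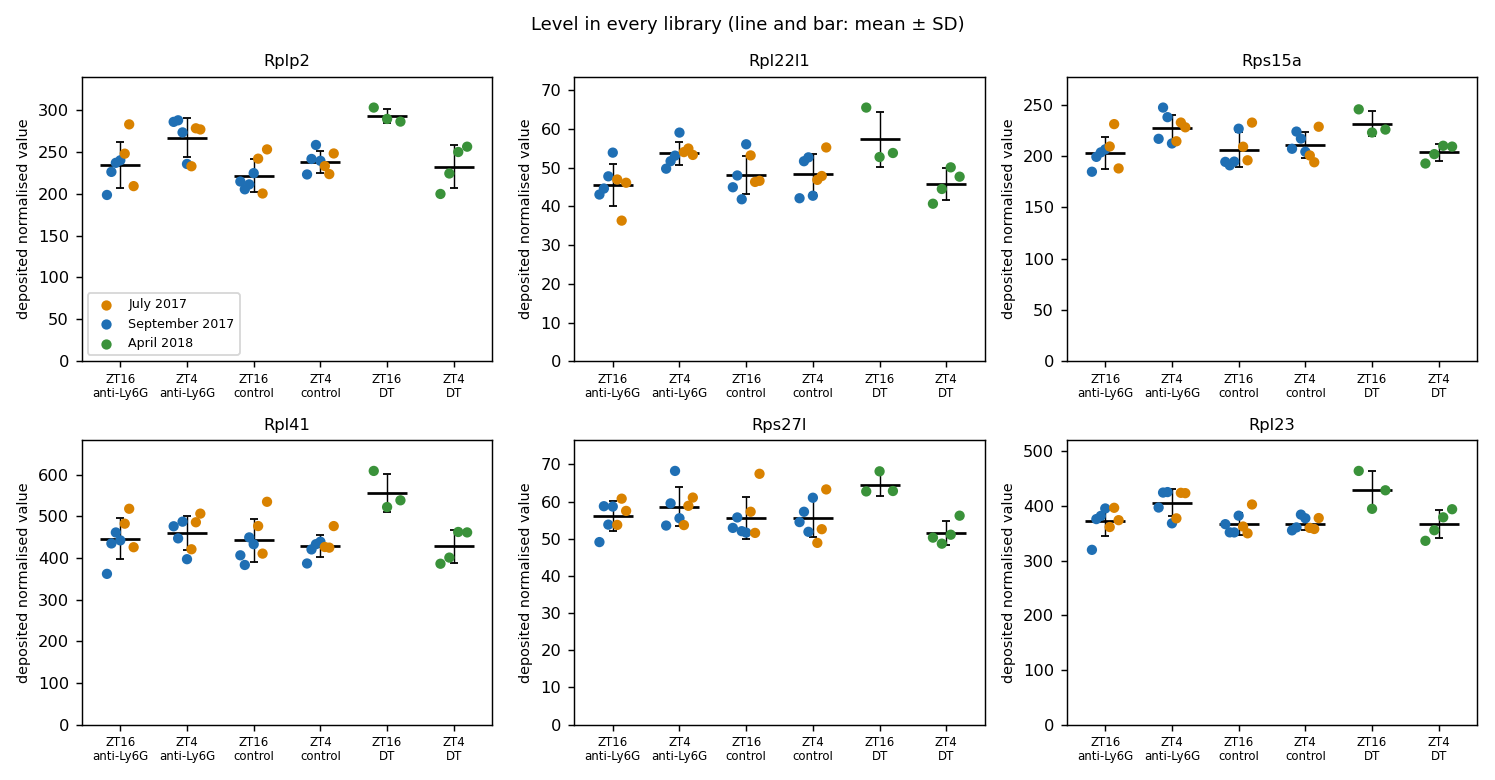
Deposited normalised value of Rplp2, Rpl22l1, Rps15a, Rpl41, Rps27l and Rpl23 in every library of the 6 groups, colour by batch, with mean and SD; axes start at 0. In DT mice the ZT16 points lie above the ZT4 points for all 6 genes, and in anti-Ly6G mice most ZT16 points of Rpl22l1 and Rps15a lie below the ZT4 points with overlap.

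The time change in DT mice was then set against those of the other treatments in the same fit; both differences share the DT libraries. Against control mice, 7 members were called with a larger change in DT mice, a share of 8.64% against a background of 4.93% (8.86% of all genes were called with a smaller change), and the median difference was 0.18. Rplp2 differed by 0.45 ± 0.12 (limma adjusted p = 0.0111) and Rps2, a small-subunit protein, by 0.31 ± 0.09 (limma adjusted p = 0.0191), followed by Rpl41, Rplp1, Rps27l, Rpl38 and Rps24. Against anti-Ly6G mice, 22 members were called (27.2%, background 7.44% higher and 11.6% lower), with a median difference of 0.22. Rpl22l1 had the largest difference, 0.56 ± 0.13 (limma adjusted p = 0.00275), then Rplp2 with 0.53 ± 0.12 (limma adjusted p = 0.0019).

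Both counts moved with single mice. Against control mice, 12 were called without ZT4_DT Apr#4 and 11 without ZT16_control Jul#3, whereas 4 were called without ZT16_DT Apr#2, ZT4_control Sep#1 or ZT4_control Sep#2, 3 without ZT4_control Sep#3 or ZT16_control Sep#3, and 1 without ZT4_DT Apr#1 or ZT16_DT Apr#1. The count was 2 without any of ZT4_DT Apr#2, ZT16_DT Apr#3, ZT4_control Sep#4, ZT4_control Jul#3, ZT16_control Sep#1, ZT16_control Sep#2 or ZT16_control Jul#2. Against anti-Ly6G mice, 39 were called without ZT16_antiLy6G Jul#2, 34 without ZT4_antiLy6G Sep#4, 11 without ZT16_DT Apr#1 and 10 without ZT4_DT Apr#1.

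Ribosomal protein messages are short, with a median annotated transcript length of 827 bases (345 to 5130), and 58 of the 83 have at most 1000 bases. They were therefore set beside the other protein-coding genes with transcripts of at most 1000 bases, of which 911 were tested. In DT mice these other short transcripts had a median time change of 0.18, with 152 called higher and 19 lower, so the members' median of 0.16 was no higher. Among the 292 short transcripts with a mean log2 level of 5 or more, the range where nearly all members lie, the median was 0.18 and 30.5% were called higher, against 19.8% of the members. In 42.1% of these 292 every ZT16 DT mouse lay above every ZT4 DT mouse, against 35.8% of members. Members annotated at no more than 1000 bases had a median of 0.17, and those annotated as longer 0.13. The longer ones include Rps15a at 5130 and Rps20 at 3706 bases. Which isoforms were present in lung was not examined, so their messages can be shorter than annotated.

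The change with length ran through the whole table. In DT mice the median time change of non-members was 0.30 for transcripts up to 500 bases, 0.17 up to 1000, 0.08 up to 2000, -0.01 up to 4000 and -0.13 above. In anti-Ly6G mice the order was the opposite, -0.11, -0.08, -0.04, -0.00 and 0.03, and in control mice it was -0.06, -0.06, -0.03, -0.00 and 0.03. The members, at -0.05 in anti-Ly6G mice and -0.00 in control mice, lay above the other short transcripts of all levels, whose medians were -0.08 and -0.06. For short transcripts with a mean log2 level of 5 or more, the library deviation averaged 0.031 in ZT4 and -0.020 in ZT16 anti-Ly6G mice. That of the members averaged 0.047 and 0.006. In control mice the averages were 0.012 at ZT4 and -0.019 at ZT16, against -0.036 and -0.041 for the members. The gap thus depended on which short transcripts were used. RNA quality and fragment length are not part of the files, and their part in this was not tested.

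**Figure D4:**
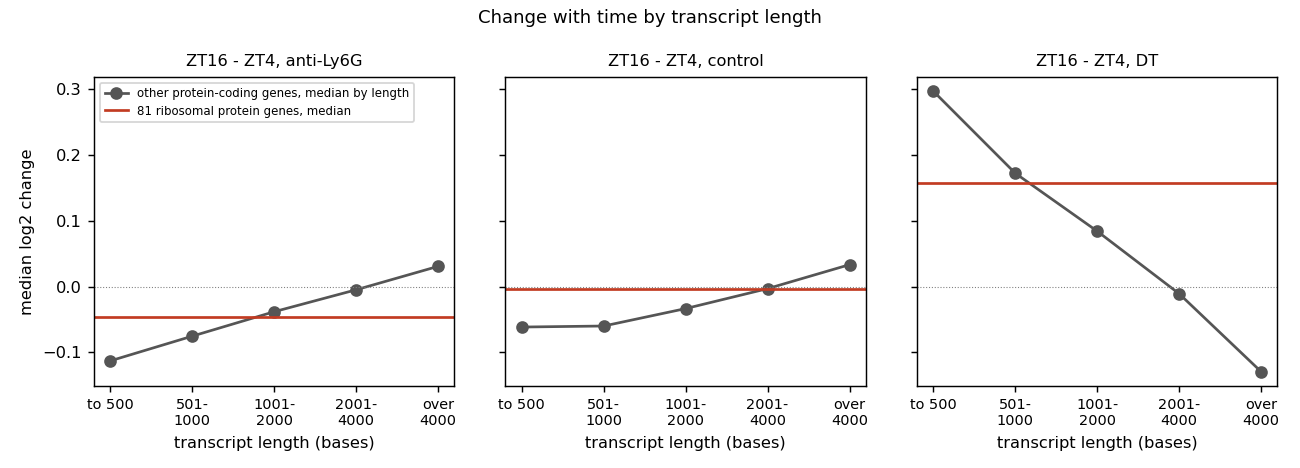
Median log2 change, ZT16 minus ZT4, of non-member protein-coding genes in 5 classes of transcript length (points) and median of the 81 ribosomal protein genes (red line), for anti-Ly6G, control and DT mice. The class medians fall with length in DT mice, 0.30 for transcripts of up to 500 bases and -0.13 above 4000, and rise with length in the other treatments.

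With the mean log2 level of the 911 other short transcripts of each library as a covariate, the calls changed in every time comparison. In DT mice 0 members were called (background 0.262% higher and 1.05% lower), their median change was -0.06, and the calls among all genes fell to 221, against 2565 without the covariate. Rpl22l1 stayed at 0.28 (limma adjusted p = 0.319) and Rps27l at 0.15, while Rpl41 was at 0.09 and Rplp2 at 0.02. The covariate itself differed between the ZT16 and ZT4 DT mice, so it takes up much of that comparison, and a loss of calls there does not show that the members were level.

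In anti-Ly6G mice with this covariate 7 members were called higher at ZT16 (Rpl6, Rpl28, Rpl29, Rpl37, Rps19 and Rps25 among them, background 7.7%) and 0 lower (background 7.91%), with a median change of 0.08. These 7 of 81 are 8.64%, near the background. In control mice 9 were called higher (Rpl6, Rpl26, Rpl27a, Rpl29, Rpl34, Rpl37, Rpl41, Rps19 and Rps25, background 3.47%) and 0 lower (background 2.94%), with a median of 0.09. With a covariate made from the 292 more abundant short transcripts, 3 members were called lower and 1 higher in anti-Ly6G mice (median change 0.01), and 0 lower and 1 higher in control mice (median change 0.04). The calls in these mice thus depended on which short transcripts formed the covariate.

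**Figure D5:**
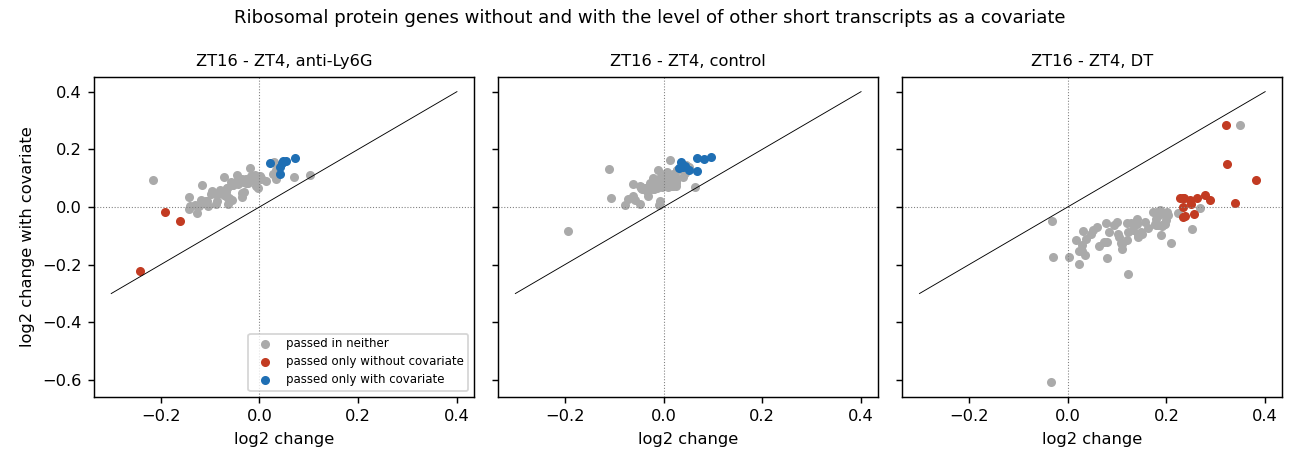
Log2 change of each of the 81 ribosomal protein genes, ZT16 minus ZT4, without (horizontal) and with (vertical) the level of other short transcripts as a covariate, in anti-Ly6G, control and DT mice; the diagonal marks equal values. The points shift upwards in anti-Ly6G and control mice, where 7 and 9 are called higher with the covariate and 0 without it, and downwards in DT mice, where 16 pass without it and 0 with it.

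Other changes moved with the time comparison in DT mice. Of 12 lung endothelial markers 8 were called lower, against 9.98% of all genes. Their summed levels were 3535 to 3963 in ZT16 DT mice and 4788 to 6003 in ZT4 DT mice. The epithelial markers summed to 61527 to 66520 in ZT16 DT mice and 48172 to 57748 in ZT4 DT mice. Of these 14 markers 3 were called higher and 2 lower, against 5.3% and 9.98% of all genes. Their part in the change of the members was not tested.

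Several members share their sequence with processed copies, and reads can be split among them. At 95% identity over at least 80% of the coding sequence, 77 of 83 members have at least 1 other copy in the genome annotation (median 5, up to 57), and for 29 such a copy has its own row in the table. For Rpl10, Rpl27, Rps12 and Rpl35 copies held more than 10% of the summed level. The row Rpl10-ps3 had a median of 582 against 88.5 for Rpl10, Rpl27-ps3 175 against 13.4 for Rpl27, Rps12-ps3 223 against 208 for Rps12, and Gm2000 144 against 92.4 for Rpl35. These levels are uncertain for each gene of a pair, and 3 of the 4 members least steady between mice are among them.

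The copies are given beside their parent genes. In DT mice Gm2000 rose by 0.22 ± 0.07 (limma adjusted p = 0.0326), whereas Rpl35 was at 0.19 ± 0.10 (limma adjusted p = 0.221). Rpl10-ps3 was at 0.15 ± 0.06 and Rpl10 at -0.03 ± 0.22 (limma adjusted p = 0.0972 and 0.938). Of the 83 members 18, each of which also has at least 1 copy, overlap exons of another gene, Rpl22l1 (159 bases, Gm33051), Rpl5 (953 bases, Fam69a) and Rps25 (462 bases, with Ccdc84 and Trappc4) among them, and reads there cannot be assigned to 1 gene where strand was not kept.

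Other genes of the translation machinery moved in both directions. Of 21 other genes with TOP messages, 4 were called higher at ZT16 in DT mice, where 5.3% of all genes were called higher. Among them were Fau (0.48 ± 0.16, limma adjusted p = 0.0411), which encodes a ribosomal protein fused to a ubiquitin-like protein and falls outside the naming rule, Eef1b2 of translation elongation, and Naca. The median of the 21 was 0.05. In anti-Ly6G mice Eef2, the translocation factor, rose by 0.22 ± 0.06 (limma adjusted p = 0.00345). Eif3l rose by 0.12 ± 0.04 (limma adjusted p = 0.0366), whereas Hnrnpa1 and Npm1 fell by 0.19 and 0.18. Of all genes tested, 10.6% were called higher and 10.4% lower there, so these single calls do not mark the 21 as a set. In control mice 0 of 21 were called, against 9.04% of all genes.

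Among 21 regulators of ribosome production, 4 rose (19.0%, against 10.6% of all genes) and 1 fell (4.76%, against 10.4%) at ZT16 in anti-Ly6G mice. Mtor, the kinase that controls TOP messages, rose by 0.37 ± 0.07 (limma adjusted p = 0.000403), Eif4ebp2, a translation repressor that it inactivates, by 0.29 ± 0.08 (limma adjusted p = 0.0114), and Tsc2 and Rps6ka2 by 0.15 and 0.23, while Rps6ka3 fell by 0.20. In control mice Tsc2, an inhibitor of mTOR, rose by 0.22 ± 0.04 (limma adjusted p = 0.000524), and Mtor was at 0.21 ± 0.07 (limma adjusted p = 0.0587). In DT mice 3 fell, Eif4ebp2 by 0.67, Rps6ka3 by 0.33 and Rps6ka2 by 0.29 (limma adjusted p = 0.000375, 0.00624 and 0.0484), or 14.3% against 9.98% of all genes, and Mtor was at -0.28 ± 0.10 (limma adjusted p = 0.0644). The time change of Mtor was lower in DT mice than in anti-Ly6G mice, with a difference of -0.64 ± 0.13 (limma adjusted p = 0.000657), and than in control mice, with one of -0.49 ± 0.13 (limma adjusted p = 0.0103). Larp1 and Myc passed in none of the 3 treatments. Among non-member transcripts above 4000 bases, 102 of 4387 were called higher and 938 lower in DT mice. Their median difference in time change was -0.16 for DT less anti-Ly6G mice and -0.17 for DT less control mice. The part of transcript length in the changes of these regulators was not tested.

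Of 45 ribosome biogenesis genes, 3 rose and 4 fell in anti-Ly6G mice (6.67% and 8.89%, below the all-gene shares of 10.6% and 10.4%), among them Ubtf of ribosomal DNA transcription (0.26 ± 0.06) and Nop58 of the small nucleolar particles (-0.35 ± 0.07). In control mice 2 rose and 2 fell (4.44% each, against 4.65% and 4.38%), with Ubtf at 0.18 ± 0.06. In DT mice 1 rose and 2 fell (2.22% and 4.44%, against 5.3% and 9.98%), with Heatr1 at -0.50 ± 0.12. Of 27 initiation factors, 7 rose and 1 fell in anti-Ly6G mice (25.9% and 3.70%, against the same shares of 10.6% and 10.4%), and 4 of those that rose were subunits of the exchange factor eIF2B (Eif2b1, Eif2b2, Eif2b3 and Eif2b4, 0.18 to 0.32), against 0 of 27 in control mice. The difference between the time changes of anti-Ly6G and control mice was called for 0 of all genes tested. Mitochondrial ribosomal protein genes, which serve a separate ribosome, had a median of 0.14 in DT mice with 5 of 77 higher (6.49%, against 5.3% of all genes), and nuclear genes of oxidative phosphorylation, many of them short, one of 0.20 with 26 of 75 higher (34.7%).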

How the data were processed

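Values were taken from the table of normalised expression values that the authors deposited, handled as a signal that is never negative. Per the submitters' processing notes, the tools were kallisto 0.43.1, RSEM 1.2.20, CASAVA 1.8.2 and cutadapt and the build was GRCm38, with no role or order given. Per the labels' protocols, RNA was amplified with the Ovation Single Cell kit before Illumina library preparation. Normalisation and any adjustment between batches are not given in the sources used here. Values are not whole numbers and hold no zeros, so read depth is unknown, no counting interval is given, and no count test was run, as the plan foresaw for such values. Columns named a group and batch but no single sample, so each library is named for its group, its batch and its place in the table.

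Genes at 1 or more in at least 3 libraries were kept, and limma 3.58.1 (R 4.3.3, trend option) was fitted to log2(value + 0.5). The model held 6 group means for the 35 libraries and 1 coefficient for September relative to July, which left 28 residual degrees of freedom. P-values were two-sided and adjusted over all 16786 genes, with a threshold of 0.05. The fit was tested on simulated data. Fold changes on this scale understate the change of low genes. Transcript lengths (median over the principal isoforms) and exons came from GENCODE M21, and copies were found with blastn 2.17.0. Alternatives were pseudocounts of 0.1 and 1, no filter, other scalings, other fits, single batches, covariates and leaving out each library. The differences between the time change of DT mice and those of the other mice, and the covariate of more abundant short transcripts, were added after the data were seen. The members and gene lists were chosen with earlier results of these data known. Members were named if they passed (up to 6 rises and 6 falls per comparison, with 1 sign in both batches) or, where fewer than 5 passed, as the 5 of smallest p. Stalk genes, paralog pairs and members with well known other roles were added where their values help. Some single genes are not reported here by name.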

Additional observations from a re-analysis of the deposited data

Results flagged for a closer look

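In 5 of 150 groups of libraries tested (29 genes), 1 library lay far from the others of its group, where chance gives about 1 in 20, or 7.5. Rpl3l was 1.16 in ZT4_antiLy6G Jul#1, with the nearest at 0.666, and lies near the floor of the table. Rps25 was 214 in ZT4_control Jul#1, with the nearest at 234. Rpl36a was 123 in ZT16_antiLy6G Sep#1, with the nearest at 147. Rpl35 was 100.1 in ZT16_control Jul#3, with the nearest at 88.5, and Rps27l was 67.5 in the same library, with the nearest at 57.3.

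The change between ZT16 and ZT4 differed between treatments, by the test of that difference, for 7 members between DT and control mice and for 22 between DT and anti-Ly6G mice, all with the larger change in DT mice. The DT libraries are shared by both comparisons, and no DT library shares a batch with the other groups.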

How the results depend on the processing

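No paired analysis was possible because the numbers in the table's columns match no replicate number of the samples' titles. Quantile normalisation gave more calls: 7 members lower in anti-Ly6G mice over time (1654 of all 16786 genes), 42 higher in DT mice (1271), and 37 and 54 with a larger time change in DT than in control and anti-Ly6G mice (1092 and 1467), the last with a median of 0.33. The 7 of 81 are near the all-gene share. In anti-Ly6G mice July libraries alone gave 0 lower and September libraries 1, and the lymphocyte covariate 1. The DT groups alone gave 6 higher. Against control mice the DT time change gave 2 without the filter and 2 without the trend.

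With the short-transcript covariate, 7 members were higher and 0 lower over time in anti-Ly6G mice (median 0.077), 9 higher in control mice and 0 in DT mice (median -0.060). With the covariate of more abundant short transcripts 1 was higher and 3 lower in anti-Ly6G mice, 1 higher in control mice and 0 in DT mice (median -0.047). For the time change of DT less control mice the 2 covariates gave 0 and 0 members, with medians of -0.148 and -0.075. For DT less anti-Ly6G mice they gave 0 and 0 higher, 1 lower with the second, and medians of -0.135 and -0.055. Signs reversed for Rplp1 in DT mice (-0.025 and -0.0095). They reversed for DT less control in Rpl41 (-0.065 and -0.0042) and Rplp1 (-0.097 and -0.015), and with the first covariate in Rpl38 (-0.044) and Rplp2 (-0.014). For DT less anti-Ly6G they reversed with the first in Rpl13a (-0.026), Rpl36a (-0.0075), Rpl38 (-0.0028), Rpl39 (-0.060), Rpl41 (-0.017), Rplp1 (-0.080) and Rps24 (-0.033). The cause was not tested.

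Leaving out 1 library gave 1 to 8 lower members in anti-Ly6G mice, 1 to 25 higher in DT mice, 1 to 12 for DT less control and 10 to 39 for DT less anti-Ly6G. Read depth is unknown, so its limit on low genes such as Rpl3l cannot be given.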
